A study of Mus musculus with 6 samples.

Results

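The genes described here encode the proteins of the cytosolic ribosome and number 88 of the 53677 gene symbols in the expression table. They were chosen by symbol alone: a name beginning with Rpl (large subunit) or Rps (small subunit) followed by a number and, in some genes, a short ending, together with Rplp0, Rplp1, Rplp2 and Rpsa. Of the 88 genes, 54 belong to the large and 34 to the small subunit. A set of 11 have symbols ending in l or l1 and are related copies (paralogs) of another member. The other 77 are called core genes below, 46 of the large and 31 of the small subunit. The annotation calls 84 of the 88 protein coding and the remaining 4 (Rps4l, Rps12l1, Rpl32l and Rpl6l) pseudogenes. RNA came from short-term haematopoietic stem cells (ST-HSC) of C57BL/6J mice, with 3 libraries from mice expressing dnTCF4 (genotype label dnTCF4+/+) and 3 from wild-type (WT) mice (genotype label dnTCF4-/-). dnTCF4 is a dominant-negative form of TCF4, a transcription factor through which β-catenin acts in Wnt signalling. The bone marrow cells were sorted as negative for lineage markers and CD150 and positive for Kit and CD48, a gate that names no Sca-1. The sources used here do not give the promoter or cell type that drives dnTCF4, the age of the mice or any inducing agent. Since 3 mice per genotype are described for the series, each library is taken as 1 mouse.

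Every cytosolic ribosome is built from a large subunit, which forms the peptide bonds, and a small subunit, which reads the mRNA. The mRNAs of these proteins begin with a run of pyrimidines at the 5′ end (the TOP motif), and their translation is controlled together through mTORC1 and LARP1. Blood formation is sensitive to their dose. In humans, loss of a single copy of several of them causes Diamond-Blackfan anaemia, and loss of a copy of RPS14 contributes to the anaemia of the 5q- syndrome.

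Libraries held 57400000 to 110900000 counted reads in dnTCF4 and 61800000 to 67700000 in WT. Levels are in RPKM, counted reads divided by the gene's length in kilobases and by the library's total. Of the genes of the gate, Kit was at 35.5 to 97.1 RPKM in dnTCF4 and 47.3 to 83.7 RPKM in WT, while Slamf1, which encodes CD150, was at 0.744 to 1.18 RPKM in dnTCF4 and 0.792 to 1.15 RPKM in WT. Immunoglobulin genes took 6.33, 3.27 and 6.00% of the summed RPKM in dnTCF4 replicates 1, 2 and 3, against 44.1, 26.7 and 25.5% in WT replicates 1, 2 and 3. The library of dnTCF4 replicate 3 stood apart from the rest. When limma estimated a quality weight for each library, it gave that library 0.273, with 0.647 for WT replicate 1 and 1.10 to 2.25 for the other 4 libraries. Fold changes and medians below that moved by over 1.5 times without dnTCF4 replicate 3 are also given without it. In bulk samples, fewer cells of a type and less RNA per cell cannot be told apart.

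Ribosomal protein genes had mostly higher values in dnTCF4 ST-HSC than in WT ST-HSC, in both subunits, but no gene among them passed the test. The test required a mean level of at least 1 RPKM, which took in 84 of the 88 members, all 77 core genes and 7 paralogs. Of these 84, 72 had a higher and 12 a lower mean of log2(RPKM + 1) in dnTCF4, and the median log2 fold change (dnTCF4 minus WT on that scale) was 0.43. Over all 11326 genes tested, 68.5% had a higher mean in dnTCF4 and the median was 0.14. With limma and Benjamini-Hochberg adjustment over all genes tested, 0 of the 84 members had an adjusted p under 0.05, against 34 genes or 0.3% of the whole table, and the smallest adjusted p among the members was 0.33, for Rps27. With voom on the recovered reads, 0 of the 74 members that could be fitted were called. At an unadjusted p under 0.05, 20 of the 84 members were higher in dnTCF4, against 7.52% of all genes, and 0 were lower, against 2.1% of all genes. With the replicate number as a block these counts were 31 higher, against 12.1% of all genes, and 0 lower, against 2.79%, and 0 members were called. All 3 dnTCF4 values lay above all 3 WT values for 30 of the 84 members, or 35.7%, beside 15.4% of all genes. The reverse held for 1 member, Rps4l, beside 2.26% of all genes.

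**Figure D1:**
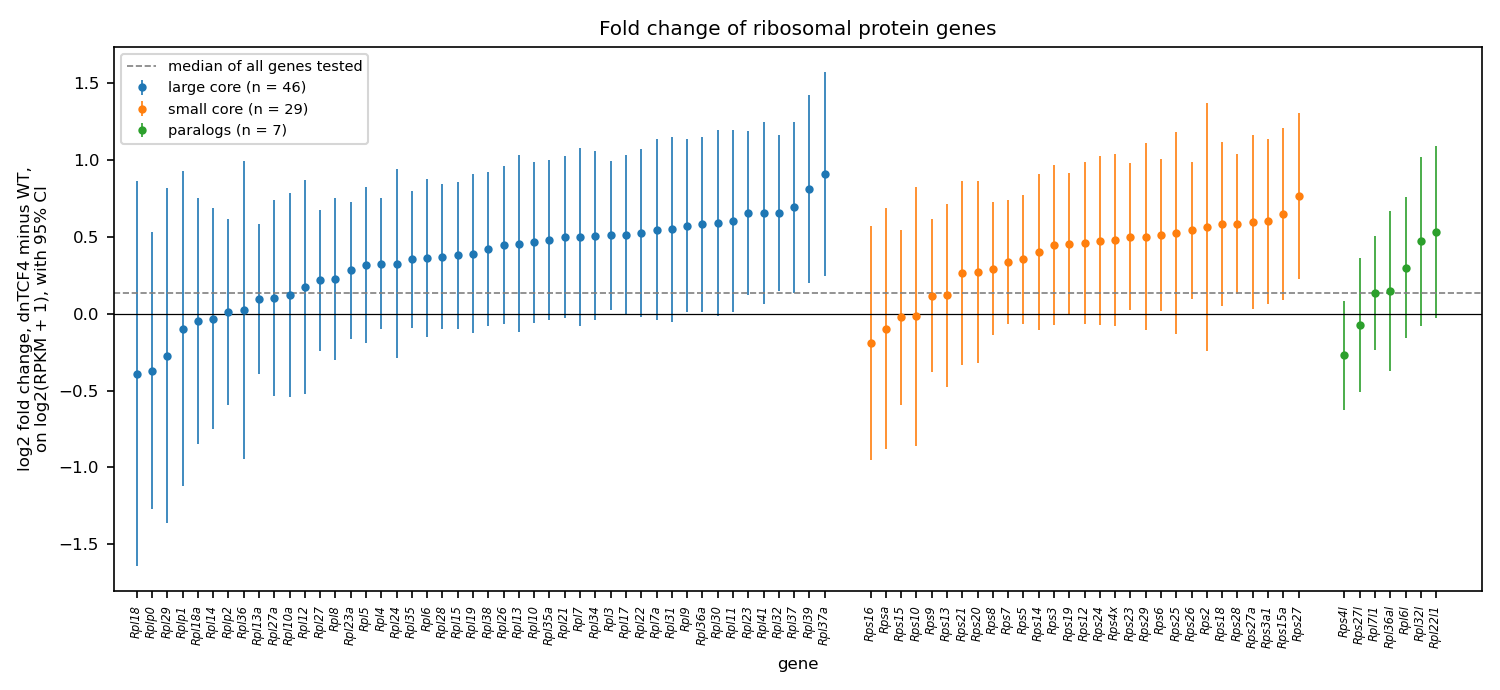
Each point is the log2 fold change (dnTCF4 minus WT, on log2(RPKM + 1)) of 1 ribosomal protein gene, with its 95% confidence interval from limma, for 46 large subunit core genes, 29 small subunit core genes and 7 paralogs. The dashed line is the median of all genes tested, 0.14, and 65 of the 75 core genes plotted lie above 0.

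The size of the difference depended on how the libraries were scaled. After scaling by the median ratio of all genes, the median log2 fold change of the members was 0.21, while that of all genes was -0.04. At that scaling 62 of 84 members had a higher mean in dnTCF4, beside 43.6% of all genes. With libraries rescaled to the sum of the genes other than immunoglobulin genes, the median of the members was 0.23 and that of all genes -0.02. With every library scaled to the same summed RPKM, the 2 medians were 0.72 and 0.36. The members' median thus lay above that of all genes by 0.30 as deposited, by 0.25 after median ratio scaling, by 0.25 without immunoglobulin genes and by 0.36 at equal sums. After median ratio scaling, the 3 dnTCF4 values lay above the 3 WT values for 11 of 84 members, or 13.1%, beside 5.54% of all genes. Without immunoglobulin genes this held for 17 of 84, or 20.2%, beside 5.9% of all genes, and at equal sums for 60 of 84, or 71.4%, beside 35.9%.

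As a share of the transcriptome, the 88 genes made up 8.51, 8.08 and 9.21% of the summed RPKM in dnTCF4 replicates 1, 2 and 3, against 4.32, 5.58 and 6.34% in WT replicates 1, 2 and 3. The groups did not overlap, at 8.60 ± 0.571% in dnTCF4 and 5.41 ± 1.02% in WT (SD, n = 3 each). With immunoglobulin genes left out of the total, the share was 9.08, 8.35 and 9.80% in dnTCF4 replicates 1, 2 and 3, and 7.72, 7.62 and 8.51% in WT replicates 1, 2 and 3. The groups then overlapped, since dnTCF4 replicate 2 lay below WT replicate 3, at 9.08 ± 0.723% in dnTCF4 and 7.95 ± 0.489% in WT (SD, n = 3 each). Between libraries of the same replicate number, the share without immunoglobulin genes was higher in dnTCF4 in 3 of 3 pairs. For the share of the whole total, the same follows from the groups not overlapping.

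**Figure D2:**
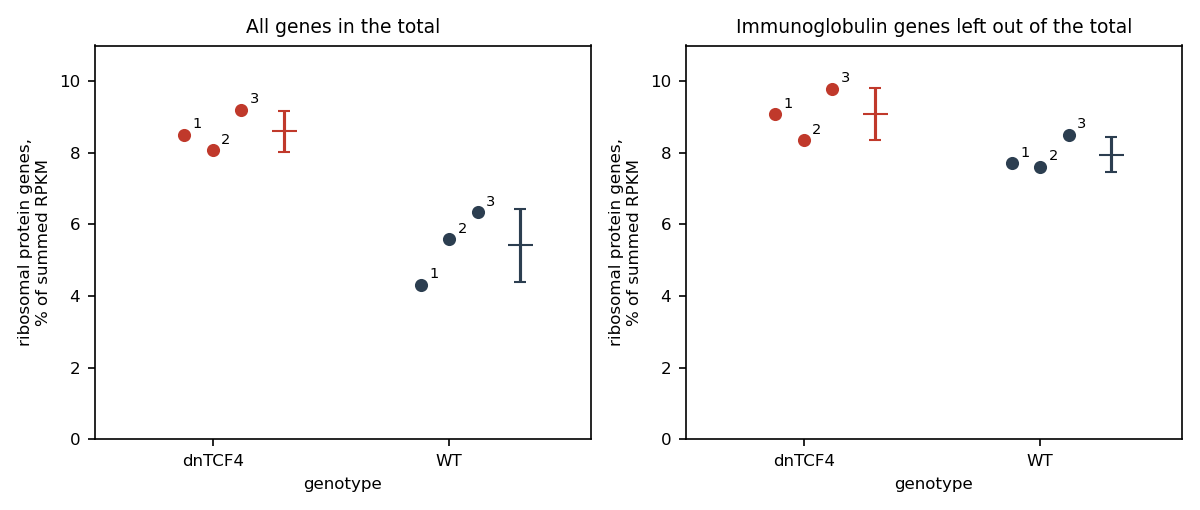
Share of the summed RPKM held by the 88 ribosomal protein genes in each library, with all genes in the total (left panel) and with immunoglobulin genes left out of it (right panel). Points are libraries numbered by replicate and the bars beside them are the mean and SD. The genotypes are apart in the left panel and overlap in the right panel, where dnTCF4 replicate 2 is at 8.35% and WT replicate 3 at 8.51%.

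Both subunits had a positive median. Among core genes of the large subunit, 40 of 46 had a higher mean in dnTCF4, the median log2 fold change being 0.40. Among those of the small subunit, 27 of 31 were higher, with a median of 0.46. Over all genes tested, 68.5% were higher, with a median of 0.14. Groups did not overlap and were higher in dnTCF4 for 16 of the 46 large subunit and 12 of the 31 small subunit core genes, or 34.8 and 38.7%, beside 15.4% of all genes. After median ratio scaling this held for 6 and 5 of them, or 13.0 and 16.1%, beside 5.54% of all genes. The summed RPKM of the large subunit divided by that of the small subunit was 1.11, 1.12 and 1.07 in dnTCF4 replicates 1, 2 and 3, against 1.10, 1.15 and 1.10 in WT replicates 1, 2 and 3. This ratio within a library does not depend on its scaling, and it overlapped between genotypes, at 1.10 ± 0.0288 in dnTCF4 and 1.12 ± 0.0303 in WT (SD, n = 3 each).

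Levels differed far more between genes than between genotypes. In the large subunit, mean RPKM of core genes ran from 20.7 (Rpl13a) to 2229 (Rpl32) in dnTCF4, with a median of 274.0, and from 19.4 to 1392 in WT for the same genes, with a median of 195.2. In the small subunit the lowest was Rps20, at 66.3 in dnTCF4 and 55.9 in WT, and the median was 511.5 in dnTCF4 and 356.9 in WT. These per-length levels divide by the annotated exon length. That length is 383 to 6270 bases among the members, although coding lengths are 138 to 1257 bases. A gene with long annotated non-coding exons can therefore have a low RPKM. The exon length is 2114, 2774 and 1030 bases for Rpl13a, Rpl27a and Rpl24, beside a median of 1781 bases over the core genes. Exons of these genes also overlap exons of other genes on the same strand, as in 28 members in total. The part of exon length or overlap in their low levels was not tested. The 3 core genes with the lowest levels, Rpl13a, Rpl27a and Rpl24, had groups that overlapped, with log2 fold changes of 0.09, 0.10 and 0.33. These were -0.11, -0.11 and 0.11 after median ratio scaling, and 0.21, 0.24 and 0.075 without dnTCF4 replicate 3.

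The core genes with the smallest p-values were Rpl37a, Rpl39, Rpl32, Rpl37 and Rpl23 in the large subunit and Rps27, Rps28, Rps26, Rps15a and Rps3a1 in the small subunit. All 10 had adjusted p-values of 0.33 to 0.48 by limma. All 10 also had 3 dnTCF4 values above 3 WT values as deposited, beside 15.4% of all genes. Since they were picked by p in the same data, this separation follows largely from the choice. After median ratio scaling it held for 11 of the 77 core genes, or 14.3%, beside 5.54% of all genes, and not for all 10 of these. Rps27 (GRCm38 chr3:90212522-90213651, minus strand), a zinc-binding protein of the small subunit, was at 758.1, 696.8 and 1144 RPKM in dnTCF4 replicates 1, 2 and 3, against 505.4, 434.5 and 558.4 RPKM in WT replicates 1, 2 and 3. Its lowest dnTCF4 library was above its highest WT library, and dnTCF4 replicate 3 was the highest of all. The log2 fold change was 0.77 (SE 0.23, limma adjusted p = 0.33), 0.55 after median ratio scaling and 0.55 without dnTCF4 replicate 3.

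Rpl37a (chr1:72711290-72713813, plus strand), a zinc-binding protein of the large subunit, was at 567.5, 456.7 and 861.8 RPKM in dnTCF4 replicates 1, 2 and 3, against 275.4, 290.6 and 419.5 RPKM in WT replicates 1, 2 and 3. It had the largest log2 fold change of the members, 0.91 (SE 0.28, limma adjusted p = 0.36), and 0.66 without dnTCF4 replicate 3. Rpl39 (chrX:37082520-37085402, minus strand), a very small protein at the wall of the tunnel through which the new chain leaves the ribosome, was at 253.1, 224.8 and 398.2 RPKM in dnTCF4 replicates 1, 2 and 3, against 150.6, 140.9 and 195.9 RPKM in WT replicates 1, 2 and 3. Its log2 fold change was 0.81 (SE 0.26, limma adjusted p = 0.37). In each of these genes the groups did not overlap, and dnTCF4 replicate 3 lay well above the other dnTCF4 libraries.

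Rpl32, the most abundant member by RPKM, was at 2070, 1780 and 2838 RPKM in dnTCF4 replicates 1, 2 and 3, against 1441, 1207 and 1528 RPKM in WT replicates 1, 2 and 3. Its log2 fold change was 0.66 (SE 0.22, limma adjusted p = 0.39). It was the only member called under any alternative listed in the closing section, after quantile normalization, where the log2 fold change was 1.10 (limma adjusted p = 0.031) and 0.371% of all genes were called. Rps28, a small subunit protein, showed less spread among the dnTCF4 mice, at 335.9, 279.3 and 347.8 RPKM in dnTCF4 replicates 1, 2 and 3, against 189.2, 195.9 and 259.6 RPKM in WT replicates 1, 2 and 3. Its log2 fold change was 0.58 (SE 0.19, limma adjusted p = 0.40) and 0.52 without dnTCF4 replicate 3. Exons of Rpl32 and Rps28 overlap exons of a gene on the other strand, and since the library chemistry does not mark strand, those reads may belong to either gene. Exons of Rpl32 also overlap those of 1 gene on the same strand.

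The sequence around the annotated start of the first 3 of these genes is shown here because their values moved together, beside that of 3 genes described next whose values in dnTCF4 replicate 3 went the other way. Each line gives the sense strand from 60 bases before to 20 bases after the start (RefSeq, GRCm38.p6), with capitals marking runs of at least 8 pyrimidines.
Rps27 (chr3:90213629-90213708, minus strand): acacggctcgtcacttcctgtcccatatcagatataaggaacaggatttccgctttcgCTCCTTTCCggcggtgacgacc
Rpl37a (chr1:72711200-72711279, plus strand): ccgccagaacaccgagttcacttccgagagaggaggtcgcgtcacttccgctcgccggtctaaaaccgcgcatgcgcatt
Rpl39 (chrX:37085203-37085282, minus strand): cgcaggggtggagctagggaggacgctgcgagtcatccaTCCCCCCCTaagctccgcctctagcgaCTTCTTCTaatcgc
Rplp0 (chr5:115559407-115559486, plus strand): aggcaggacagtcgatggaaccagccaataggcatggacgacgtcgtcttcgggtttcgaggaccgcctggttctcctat
Rpl18 (chr7:45718011-45718090, plus strand): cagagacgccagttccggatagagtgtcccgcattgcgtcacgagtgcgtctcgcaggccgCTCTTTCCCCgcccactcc
Rpsa (chr9:120127706-120127785, plus strand): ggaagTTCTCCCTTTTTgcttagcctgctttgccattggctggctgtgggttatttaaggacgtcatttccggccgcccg

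Such runs are present in 2 of the first 3 windows and in 2 of the last 3. The run of Rpsa lies more than 20 bases before the start, so it is outside the stretch used for the count that follows. A RefSeq promoter of 300 bases (250 before and 50 after the start) was found for 65 members. A run of at least 8 pyrimidines within 20 bases of the start, on the sense strand, was present in 31 of the 65, or 47.7%, against 19.0% of 7790 genes tested that have a promoter and 18.4% of all 27025 promoters. Over the whole 300 bases and both strands, ACTTCCGG, the core of the ETS-factor motif, was present in 12 of 65 (18.5%), against 10.4% of the genes tested and 4.31% of all promoters. TATAAA was present in 8 of 65 (12.3%), against 8.40% and 15.7%. CTTTGAT, the TCF/LEF motif, was in 0 of 65, against 3.07% and 4.29%, which says only that these letters are not in these windows.

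A set of core genes behaved otherwise in dnTCF4 replicate 3. The proteins of the stalk, Rplp0, Rplp1 and Rplp2, which recruit the translation GTPases to the large subunit, and Rpsa, a small subunit protein also known as the laminin receptor, were all lowest among the dnTCF4 libraries in replicate 3. Rplp0 (chr5:115559467-115563727) was at 1341, 1156 and 470.4 RPKM in dnTCF4 replicates 1, 2 and 3, against 1029, 1215 and 1262 RPKM in WT replicates 1, 2 and 3. Replicate 3 of dnTCF4 had the lowest value of the 6 libraries and the other dnTCF4 libraries were within the WT range or just above it. The log2 fold change was -0.37 (SE 0.38, limma adjusted p = 0.73) and 0.10 without dnTCF4 replicate 3. Rpsa was at 466.3, 381.9 and 197.2 RPKM in dnTCF4 replicates 1, 2 and 3, against 307.2, 322.2 and 435.0 RPKM in WT replicates 1, 2 and 3, with a log2 fold change of -0.10 (limma adjusted p = 0.90) that was 0.27 without dnTCF4 replicate 3.

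Rplp1 was at 743.8, 544.7 and 316.8 RPKM in dnTCF4 replicates 1, 2 and 3, against 317.4, 874.1 and 567.1 RPKM in WT replicates 1, 2 and 3. Here WT replicate 1 was as low as dnTCF4 replicate 3, and its fold between the highest and the lowest WT library, 2.75, was the largest of the 77 core genes. Rplp2 was at 83.8, 69.2 and 52.8 RPKM in dnTCF4 replicates 1, 2 and 3, against 49.9, 79.1 and 75.6 RPKM in WT replicates 1, 2 and 3. Both had groups that overlapped, with log2 fold changes of -0.10 and 0.01, and of 0.24 and 0.19 without dnTCF4 replicate 3.

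The same pattern was seen in several genes chosen after their values were seen. Rpl18, a large subunit protein, was at 144.7, 106.3 and 35.9 RPKM in dnTCF4 replicates 1, 2 and 3, against 69.3, 155.4 and 116.8 RPKM in WT replicates 1, 2 and 3. Its 4.03-fold spread within dnTCF4 was the widest of the core genes. Rpl29 was at 188.9, 139.7 and 66.7 RPKM in dnTCF4 replicates 1, 2 and 3, against 93.7, 240.6 and 138.3 RPKM in WT replicates 1, 2 and 3. Rpl36 was at 192.0, 189.6 and 88.0 RPKM in dnTCF4 replicates 1, 2 and 3, against 91.0, 218.8 and 153.4 RPKM in WT replicates 1, 2 and 3. In all 3 of these genes the lowest dnTCF4 value was in replicate 3, the lowest WT value was in replicate 1, and the genotypes overlapped. Rps2, at 110.5, 76.1 and 175.1 RPKM in dnTCF4 replicates 1, 2 and 3 and 61.5, 69.1 and 106.2 RPKM in WT replicates 1, 2 and 3, was instead highest in dnTCF4 replicate 3.

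Across the 77 core genes, 50 genes had their highest value of the 6 libraries in dnTCF4 replicate 3 and 13 had their lowest there. Among all genes tested these shares were 42.4% and 24.3%. In WT replicate 1, 36 core genes, or 46.8%, had their lowest value and 0 their highest, beside 36.4% and 4.41% of all genes tested. Relative to the mean of dnTCF4 replicates 1 and 2 on the log2 scale, replicate 3 was above it for 52 core genes, with a median difference of 0.61, and below it for 25, with a median of -0.58. For all 25 genes of the lower set, WT replicate 1 was below the mean of WT replicates 2 and 3 as well, by a median difference of -0.62. This also held for 41 of the other 52 core genes, the median difference over all 52 being -0.14. It held as well for 7007 of the 9480 genes tested that have a coding GC content. The fold between the highest and lowest library of a genotype had a median of 1.65 in dnTCF4 and 1.31 in WT over the core genes.

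**Figure D3:**
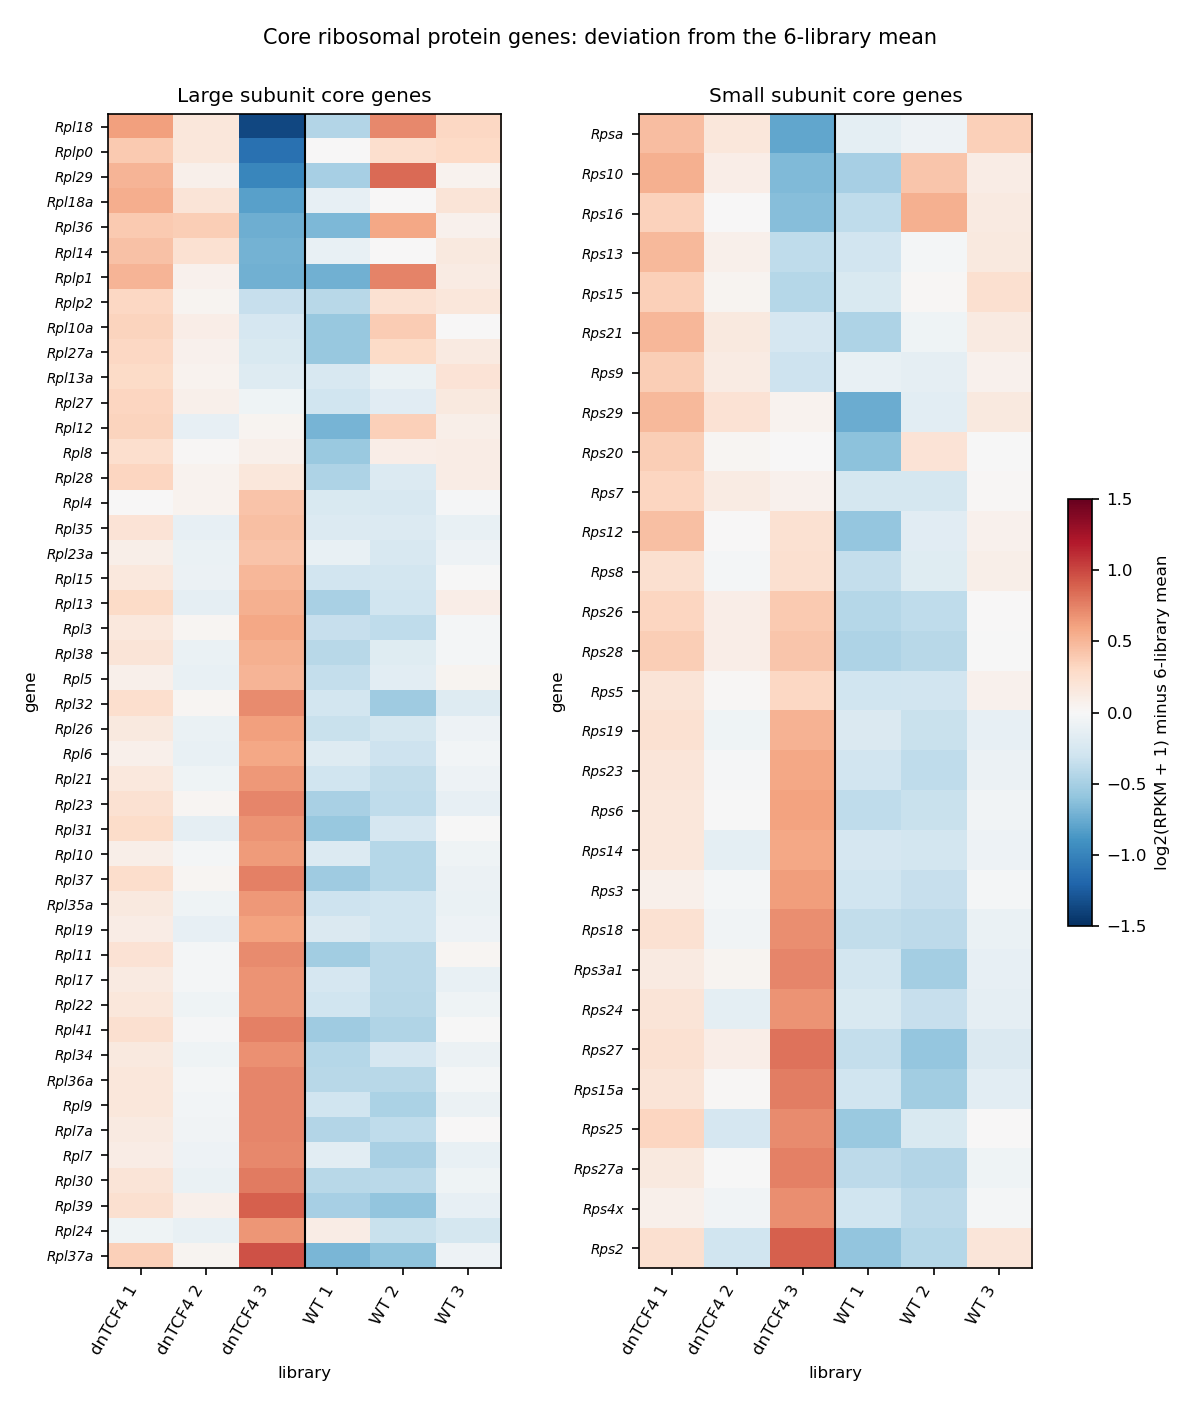
Difference of log2(RPKM + 1) from the gene's mean over the 6 libraries, for the 46 large subunit core genes (left panel) and 29 small subunit core genes (right panel), sorted by how far dnTCF4 replicate 3 lies from dnTCF4 replicates 1 and 2. Red is above and blue below the mean. The column of dnTCF4 replicate 3 is blue at the top (Rpl18, Rplp0 and Rpsa) and red below, and the column of WT replicate 1 is blue in most rows.

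The difference between replicate 3 and the other dnTCF4 libraries moved with the base composition of the gene. The 25 genes below had a median GC content of 56.0% in the coding sequence and the 52 genes above 51.0%. In the tertile of core genes with the lowest GC (44.9 to 50.6%, n = 26) the median difference was 0.61 and 2 genes were below 0. In the middle tertile (n = 25) it was 0.46 with 8 genes below 0, and in the tertile with the highest GC (54.7 to 61.6%, n = 26) it was -0.18 with 15 genes below 0. As a description over 77 genes that share the same libraries, GC and this difference had Pearson's r = -0.59 and Spearman's rho = -0.60, and GC and the difference of WT replicate 1 from WT replicates 2 and 3 had r = -0.53 and rho = -0.52. The corresponding rho with coding length was -0.11 and with the mean level 0.08. The tendency was not particular to these genes: over all 9480 genes tested that have a coding GC content, rho was -0.26 for dnTCF4 replicate 3 and -0.28 for WT replicate 1. The part of GC content in the values of these libraries was not tested.

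**Figure D4:**
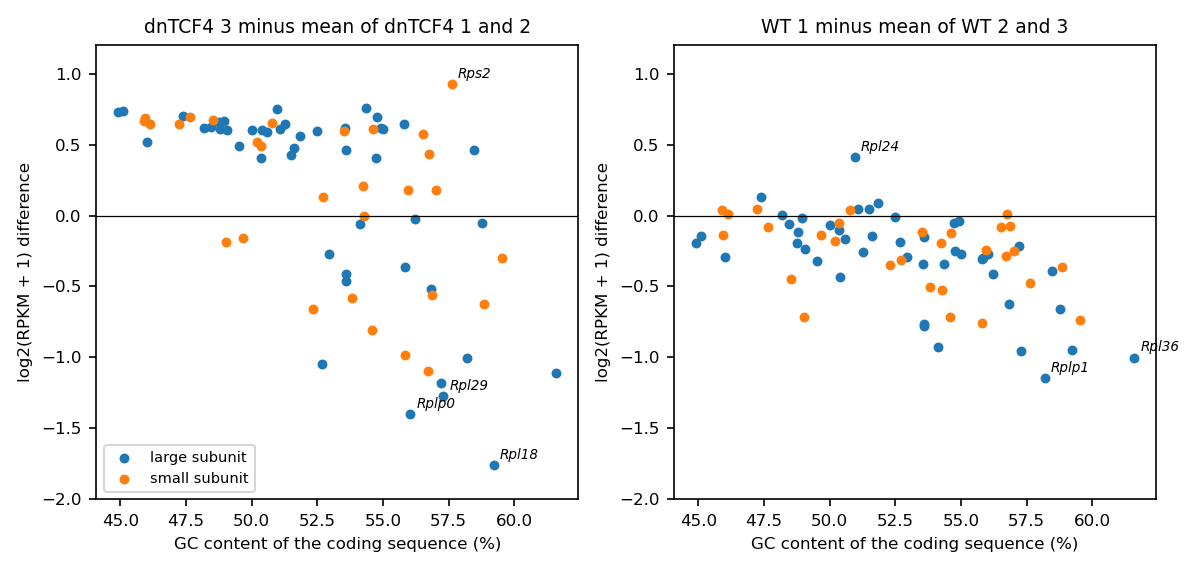
Each point is a core gene, plotted by the GC content of its coding sequence and by the difference, in log2(RPKM + 1), of dnTCF4 replicate 3 from the mean of dnTCF4 replicates 1 and 2 (left panel) or of WT replicate 1 from the mean of WT replicates 2 and 3 (right panel). In the left panel 50 of the 75 genes plotted are above 0 and 25 below, the lowest being Rpl18, and Rps2 is high despite its GC content of 57.6%.

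Without dnTCF4 replicate 3, 77 of 77 core genes had a higher mean in dnTCF4, beside 73.2% of all genes tested. The median log2 fold change of the core genes was 0.30, beside a median of 0.11 over all genes. The medians in the low, middle and high GC tertiles were then 0.33, 0.29 and 0.28, against 0.51, 0.36 and 0.29 with that library in. With the median ratio scaling as well, 69 of 77 were higher, beside 42.4% of all genes, with a median of 0.13 beside -0.03 over all genes. With WT replicate 1 and dnTCF4 replicate 3 both left out, 70 of 77 were higher, beside 56.7% of all genes. The median of the core genes was then 0.22, beside 0.04 over all genes. In all of these fits 0 members were called by limma. Within pairs of libraries with the same replicate number, dnTCF4 was above WT for 76, 63 and 55 of the 77 core genes in pairs 1, 2 and 3. Among all 11326 genes tested, dnTCF4 was above WT for 9179, 6925 and 6600 in these pairs. It was above WT in all 3 pairs for 52 core genes, or 67.5%, against 37.3% of all genes tested. After median ratio scaling this held for 34 core genes, or 44.2%, against 14.7%.

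Of 9 genes known from Diamond-Blackfan anaemia or the 5q- syndrome in humans, 8 had a higher mean in dnTCF4, or 88.9%, beside 68.5% of all genes. In 4 of the 9 (Rps7, Rps19, Rps26 and Rpl35a) the groups did not overlap, beside 15.4% of all genes. The median log2 fold change was 0.45, and 0.31 without dnTCF4 replicate 3. After median ratio scaling, 1 of the 9 (Rps26) had groups that did not overlap, beside 5.54% of all genes, and the median was 0.23. Rps19 (chr7:24884371-24889806), the gene most often mutated in Diamond-Blackfan anaemia, was at 540.1, 439.3 and 659.4 RPKM in dnTCF4 replicates 1, 2 and 3, against 395.9, 364.5 and 421.9 RPKM in WT replicates 1, 2 and 3. Its groups did not overlap as deposited but overlapped after median ratio scaling. The log2 fold change of Rps19 was 0.45 (SE 0.20, limma adjusted p = 0.53), and 0.23 after that scaling.

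Rpl5 and Rpl11, which join the 5S rRNA in a particle that can bind MDM2 and so stabilise p53, had groups that overlapped. Rpl11 was at 153.3, 129.4 and 216.5 RPKM in dnTCF4 replicates 1, 2 and 3, against 91.2, 99.5 and 134.1 RPKM in WT replicates 1, 2 and 3, with a log2 fold change of 0.60 (SE 0.25, limma adjusted p = 0.52) and 0.40 without dnTCF4 replicate 3. Rpl5 was at 230.6, 201.8 and 310.3 RPKM in dnTCF4 replicates 1, 2 and 3, against 170.3, 194.6 and 223.5 RPKM in WT replicates 1, 2 and 3, with a log2 fold change of 0.32 (SE 0.22, limma adjusted p = 0.68) and 0.15 without dnTCF4 replicate 3. In both genes only dnTCF4 replicate 2 lay below the highest WT value. Rps14 and Rps24 also overlapped, with log2 fold changes of 0.40 and 0.48, and of 0.21 and 0.26 without dnTCF4 replicate 3. Rps10, which encodes a protein at the beak of the small subunit, was the exception in direction at -0.02, with values of 133.5, 98.1 and 57.5 RPKM in dnTCF4 replicates 1, 2 and 3, and 64.6, 122.6 and 98.7 RPKM in WT replicates 1, 2 and 3. Without dnTCF4 replicate 3 its log2 fold change was 0.31.

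The paralogs had a lower median fold change than the core genes, a difference given without a test. Of the 11, 7 reached the level needed for testing, and of these 5 had a higher mean in dnTCF4, or 71.4%, beside 68.5% of all genes, the median log2 fold change being 0.15, near the 0.14 of all genes. After median ratio scaling 3 of 7 were higher, or 42.9%, beside 43.6% of all genes, with a median of -0.07. Rpl10l, a retrogene active in the testis, and Rps12l1 were listed at 0 in all 6 libraries. Rpl3l, known from striated muscle, was at 0.255 to 1.25 RPKM in dnTCF4 and 0.552 to 0.681 RPKM in WT. Rpl39l, known from the testis, was at 0.191 to 1.38 RPKM in dnTCF4 and 0 to 0.429 RPKM in WT. Their means did not reach 1 RPKM, so these 4 genes went untested.

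Rps27l, a target of p53 in human cells, was the most abundant paralog, at 623.9, 531.0 and 461.5 RPKM in dnTCF4 replicates 1, 2 and 3, against 503.5, 637.2 and 553.8 RPKM in WT replicates 1, 2 and 3. The groups overlapped, with a log2 fold change of -0.07 (SE 0.19, limma adjusted p = 0.87) and 0.034 without dnTCF4 replicate 3. Rpl22l1, the partner of Rpl22, a protein needed for T lymphocyte development in mice, was at 55.4, 55.0 and 88.1 RPKM in dnTCF4 replicates 1, 2 and 3, against 48.8, 37.7 and 47.1 RPKM in WT replicates 1, 2 and 3. Its groups did not overlap as deposited but overlapped after median ratio scaling. The log2 fold change of Rpl22l1 was 0.53 (SE 0.24, limma adjusted p = 0.54), 0.32 after median ratio scaling and 0.31 without dnTCF4 replicate 3. Rpl7l1 was at 175.2, 210.1 and 189.0 RPKM in dnTCF4 replicates 1, 2 and 3, against 171.5, 174.9 and 174.9 RPKM in WT replicates 1, 2 and 3, with dnTCF4 replicate 1 just above all WT libraries. Its log2 fold change was 0.14 (SE 0.16, limma adjusted p = 0.75) and -0.08 after median ratio scaling.

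Rpl36al was at 58.3, 52.1 and 83.9 RPKM in dnTCF4 replicates 1, 2 and 3, against 64.7, 53.2 and 54.3 RPKM in WT replicates 1, 2 and 3, and its groups overlapped. The annotated pseudogenes Rpl32l, Rpl6l and Rps4l were at 7.48 to 9.96, 1.82 to 2.68 and 0.906 to 1.09 RPKM in dnTCF4, against 4.22 to 7.63, 1.13 to 2.02 and 1.12 to 1.65 RPKM in WT. Rps4l was thus lower in every dnTCF4 library than in any WT library, with a log2 fold change of -0.27 (SE 0.15, limma adjusted p = 0.62).

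A paralog could be set against its core gene in the same library in 7 pairs. The percentages that follow are ratios of RPKM, in which the scaling of the library cancels, while the log2 differences use RPKM + 1 and for low genes depend on that pseudocount. The log2 ratio was tested with an exact two-sided permutation test of 3 against 3 libraries, which cannot give a p below 0.1, and adjusted over the 7 pairs. Rps27l was at 82.3, 76.2 and 40.4% of the RPKM of Rps27 in dnTCF4 replicates 1, 2 and 3, against 99.6, 146.7 and 99.2% in WT replicates 1, 2 and 3. All 3 dnTCF4 ratios lay below all 3 WT ratios, at 66.3 ± 22.7% in dnTCF4 and 115.1 ± 27.3% in WT (SD, n = 3 each), a log2 difference of -0.84 (exact permutation p = 0.1, adjusted 0.23). Without dnTCF4 replicate 3 the difference was -0.51. Rpl36al was at 29.4, 30.0 and 28.6% of the RPKM of Rpl36a in dnTCF4 replicates 1, 2 and 3, against 49.1, 40.3 and 31.4% in WT replicates 1, 2 and 3. These ratios did not overlap either, and the log2 difference was -0.43 (exact permutation p = 0.1, adjusted 0.23), and -0.28 without WT replicate 1.

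The ratio of Rpl22l1 to Rpl22 differed between genotypes by less than its spread between mice. Rpl22l1 was at 54.8, 64.0 and 61.1% of Rpl22 in dnTCF4 replicates 1, 2 and 3, against 67.4, 56.3 and 55.2% in WT replicates 1, 2 and 3, a log2 difference of 0.01 (exact permutation p = 1, adjusted 1), and of -0.0068 without dnTCF4 replicate 3. Rpl7l1 was at 43.0, 58.8 and 30.4% of Rpl7 in dnTCF4 replicates 1, 2 and 3, against 50.8, 64.9 and 49.9% in WT replicates 1, 2 and 3. These ratios overlapped, with a log2 difference of -0.36 (exact permutation p = 0.3, adjusted 0.42), and of -0.60 to -0.12 with each library left out in turn, the last without dnTCF4 replicate 3. Between libraries of the same replicate number, the ratio was lower in dnTCF4 in 3 of 3 pairs. The log2 differences of the 3 pseudogene pairs were -0.75 for Rps4l to Rps4x, -0.19 for Rpl32l to Rpl32 and -0.06 for Rpl6l to Rpl6, with adjusted p-values of 0.23, 0.42 and 0.82 by the exact permutation test. Without dnTCF4 replicate 3 they were -0.48, -0.12 and 0.014, the second was -0.077 without WT replicate 3, and with a pseudocount of 0.1 RPKM they were -0.93, -0.12 and 0.087.

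**Figure D5:**
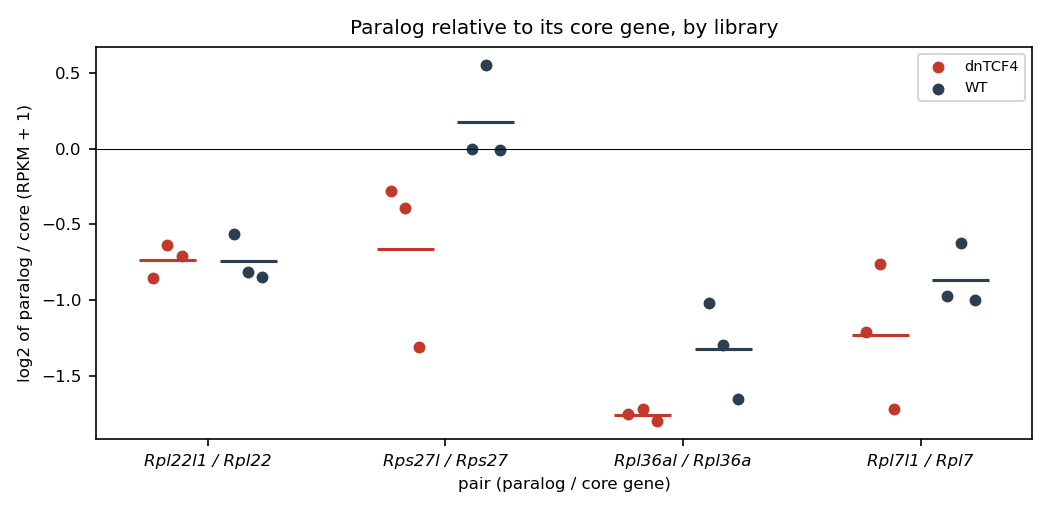
Log2 of the RPKM + 1 of a paralog over that of its core gene in each library, with the group mean as a line, for the 4 protein-coding pairs tested. The dnTCF4 points lie below all WT points for Rps27l over Rps27 and Rpl36al over Rpl36a, and the genotypes overlap for Rpl22l1 over Rpl22 and Rpl7l1 over Rpl7.

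Whether reads can be assigned to 1 gene of a pair depends on how far their sequences differ. Coding sequences of the pair were identical at 72.6% of aligned bases for Rps27l and Rps27, with no identical stretch longer than 11 bases. For Rpl22l1 and Rpl22 identity was 69.4%, with a longest stretch of 26 bases, and for Rpl36al and Rpl36a it was 87.7%, with a longest stretch of 24 bases. A stretch of 90 bases of each is shown because reads over it can tell the pair apart, with capitals marking the bases that differ within the pair (coding strand, GENCODE M21, positions counted from 1 at the start codon).
Rps27l: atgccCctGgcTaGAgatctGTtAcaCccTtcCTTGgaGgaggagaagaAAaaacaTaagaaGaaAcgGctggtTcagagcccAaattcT
Rps27: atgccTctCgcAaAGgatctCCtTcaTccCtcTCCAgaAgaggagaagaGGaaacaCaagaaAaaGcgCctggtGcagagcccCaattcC
Rpl22l1: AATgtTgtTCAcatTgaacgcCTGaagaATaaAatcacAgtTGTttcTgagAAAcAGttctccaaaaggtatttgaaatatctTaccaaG
Rpl22: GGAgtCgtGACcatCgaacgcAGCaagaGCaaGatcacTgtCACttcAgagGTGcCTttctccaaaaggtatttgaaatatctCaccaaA
Rpl36al: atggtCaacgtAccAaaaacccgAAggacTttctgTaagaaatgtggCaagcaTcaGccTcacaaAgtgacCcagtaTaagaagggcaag
Rpl36a: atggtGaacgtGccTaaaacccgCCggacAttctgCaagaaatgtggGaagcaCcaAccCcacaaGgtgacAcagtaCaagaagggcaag

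In these stretches 24 bases differ between Rps27l and Rps27 (positions 1 to 90 of both), 26 between Rpl22l1 (157 to 246) and Rpl22 (175 to 264), and 14 between Rpl36al and Rpl36a (1 to 90 of both). The sources used here do not say how reads matching several genes were treated. Of the 88 members, 60 have pseudogene rows named after them in the table. Those 288 rows summed to 1.68, 1.62 and 1.91% of the members' summed RPKM in dnTCF4 replicates 1, 2 and 3, against 1.99, 1.81 and 1.77% in WT replicates 1, 2 and 3. A further source of uncertainty is overlap: 40 members share exon bases with another gene, 28 with a gene on the same strand and 20 with a gene on the other strand. Reads on bases shared with the other strand cannot be told apart without strand. Those on bases shared on the same strand could not be told apart by strand either.

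Other genes of the translation machinery had lower median fold changes than the ribosomal proteins, a difference given without a test, and 0 genes of any of the lists that follow were called by limma. Of 74 ribosome biogenesis genes tested, 34 had a higher and 40 a lower mean in dnTCF4, the median log2 fold change being -0.02. Of 45 translation factors, 30 were higher and 15 lower, with a median of 0.13, and the smallest p was for Tpt1, itself a TOP mRNA. Tpt1 was at 111.7, 100.9 and 131.9 RPKM in dnTCF4 replicates 1, 2 and 3, against 83.3, 71.3 and 85.5 RPKM in WT replicates 1, 2 and 3 (log2 fold change 0.51, limma adjusted p = 0.44). Its groups did not overlap as deposited but overlapped after median ratio scaling. As deposited, all 3 dnTCF4 values lay above all 3 WT values for 7 of the 45 translation factors, beside 15.4% of all genes. Among 72 genes for the proteins of the mitochondrial ribosome, 50 were higher and 22 lower, with a median of 0.11. After median ratio scaling these 3 lists had medians of -0.21, -0.07 and -0.08, against 0.21 for the cytosolic ribosomal protein genes and -0.04 for all genes. Without dnTCF4 replicate 3, and with the scaling as deposited, the medians of the 3 lists were -0.0019, 0.077 and 0.087.

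Among 11 genes of proteins linked to the ribosome, 5 were higher and 6 lower, with a median of -0.14, and of 0.10 without dnTCF4 replicate 3. They include Rack1 and Fau, whose products sit on the small subunit. Fau was at 324.1, 220.1 and 110.7 RPKM in dnTCF4 replicates 1, 2 and 3, against 148.0, 342.3 and 231.9 RPKM in WT replicates 1, 2 and 3, low in dnTCF4 replicate 3 and in WT replicate 1. Of 17 genes of mTORC1 and TOP mRNA control, 11 were higher and 6 lower, with a median of 0.05. Of 14 genes of the p53 response, 8 were higher and 6 lower, with a median of 0.13, and of 0.064 without dnTCF4 replicate 3. Fas, a death receptor and p53 target, had the smallest p of that list, at 4.90, 8.06 and 9.72 RPKM in dnTCF4 replicates 1, 2 and 3, against 2.56, 1.88 and 2.13 RPKM in WT replicates 1, 2 and 3 (log2 fold change 1.39, limma adjusted p = 0.11).

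Summed levels of markers of other blood cells did not overlap between genotypes for 4 of 6 lists, although 0 of the markers were called by limma. The summed RPKM of 20 B and plasma cell markers was 459.1 to 896.8 in dnTCF4 and 2807 to 8114 in WT, and 13 of the 15 tested were lower in dnTCF4. The sum of 15 erythroblast markers was 1418 to 1628 in dnTCF4 and 797.9 to 974.9 in WT, with 10 of 10 tested higher, and that of 11 megakaryocyte markers was 193.0 to 207.4 in dnTCF4 and 97.0 to 122.8 in WT, with 5 of 6 higher. Neutrophil markers summed to 3248, 4049 and 7958 in dnTCF4 replicates 1, 2 and 3, against 761.7, 824.0 and 3340 in WT replicates 1, 2 and 3, with 10 of 12 tested higher and with the highest value in dnTCF4 replicate 3 for 10 of 14. Monocyte and dendritic cell markers summed to 552.2 to 868.0 in dnTCF4 and 990.9 to 1140 in WT, with 5 of 11 tested higher, and T and NK cell markers to 758.4 to 1180 in dnTCF4 and 1008 to 1285 in WT, with 4 of 7 higher. The sums of the B cell, erythroblast, megakaryocyte and monocyte lists did not overlap between genotypes, while those of the neutrophil list overlapped in dnTCF4 replicate 1 and WT replicate 3, and those of the T and NK cell list overlapped too. Of the 6 genes of the sort gate tested, 3 were higher and 3 lower. No marker of any of these lists was at 0 in all libraries. At an unadjusted p under 0.05 by limma there were 8 of 15 B and plasma cell, 9 of 12 neutrophil, 6 of 10 erythroblast, 3 of 6 megakaryocyte and 2 of 11 monocyte and dendritic cell markers, beside 9.62% of all genes. There were also 1 of 45 translation factors, 1 of 14 genes of the p53 response and 1 of 72 of the mitochondrial ribosome, and 0 of the other lists. The part of these cells in the values of the ribosomal protein genes was not tested.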

How the data were processed

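Poly(A) RNA of sorted ST-HSC from 3 dnTCF4 and 3 WT mice was measured. Per the labels' protocols, SMART-Seq v4 was used for cDNA and Nextera XT for libraries, with paired-end sequencing. The authors deposited 1 table of RPKM values. The tools listed, per the submitters' processing notes, are edgeR, DESeq2, featureCounts and STAR, with GRCm38 and mm10 as builds. Their roles and versions and the annotation are not given. RPKM times exon length in GENCODE M21 gave whole reads (within 0.02) for 92.9 to 93.4% of genes checked, which gave the depths. From the deposited values, log2(RPKM + 1) was tested with limma 3.58.1 (R 4.3.3; eBayes with trend, genotype only, two-sided) for genes whose mean of the 6 libraries was 1 RPKM or more, with Benjamini-Hochberg adjustment over all of them. Fold changes on this scale understate the change of low genes.

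Samples with the same replicate number were checked for pairing: their deviations from the group means had correlations of 0.17 (number 1), 0.35 (number 2) and 0.30 (number 3), each over 0.1. The numbers were therefore taken as a possible pairing of the samples, from the data and not from the labels. Samples with different numbers were not compared in this way, so the check cannot show that the pairing is real. Over the core genes, the differences of WT replicate 1 and dnTCF4 replicate 3 from the other libraries of their genotype had Pearson's r = 0.65. The pairing entered only the replicate block and the counts over pairs, and not the p-values printed for single genes or ratios. Alternatives were other pseudocounts, filters and scalings, immunoglobulin genes left out, the replicate block, library weights, voom on recovered reads and each library left out. GC content and coding sequences came from GENCODE M21, promoters from RefSeq (GRCm38.p6).

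The members and lists were chosen with earlier results of these data known, and the list of mitochondrial ribosomal protein genes was added later. Genes named were the 5 core genes of each subunit with the smallest p, the paralogs and their partners, the stalk genes and Rpsa, the highest and lowest levels, the human disease genes and, from the other lists, those with the smallest p. Seen values led to the choice of Rpl18, Rpl29, Rpl36, Rps2, Rps20 and Fau, while Kit, Slamf1 and Rack1 stand as genes of their lists. A few members are not reported by name and are left out of the plots.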

Additional observations from a re-analysis of the deposited data

How the results depend on the processing

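The cause of the changes below was not tested. The number of genes called in the whole table was 34. It became 6 without a filter on low values, 86 with library weights, 14 by voom on recovered reads and 22 after median ratio scaling with dnTCF4 replicate 3 left out. With immunoglobulin genes left out it was 0 by limma, with 380 genes higher and 224 lower at an unadjusted p under 0.05, and with each library left out in turn it was 7 to 34, lowest without WT replicate 1. Members called numbered 0 in every fit listed in this paragraph except quantile normalization, where it was 1 (Rpl32, log2 fold change 1.10). The replicate block gave 49 genes called in the whole table and 0 members, with 31 of 84 members higher at an unadjusted p under 0.05, beside 12.1% of all genes, and changed no call of a member. The median log2 fold change of the members, large subunit, small subunit and core genes was 0.21, 0.17, 0.23 and 0.23 after median ratio scaling, 0.72, 0.68, 0.74 and 0.74 at equal sums, and 0.13, 0.11, 0.14 and 0.13 after median ratio scaling with dnTCF4 replicate 3 left out. It was 0.25 for the small subunit and 0.24 for the core genes with immunoglobulin genes left out, and 0.22 for the members and 0.22 for the core genes with WT replicate 1 and dnTCF4 replicate 3 both left out. The median of the paralogs was -0.068 after median ratio scaling, -0.030 after that scaling without dnTCF4 replicate 3 and -0.053 without immunoglobulin genes. With each library left out in turn, the medians were 0.30 to 0.56 for the members and 0.14 to 0.29 for the paralogs. The difference in the share of summed RPKM in ribosomal protein genes was 3.19 percentage points and became 1.13 with immunoglobulin genes left out of the total.

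Single genes changed sign as follows, in log2 fold change. Median ratio scaling and the omission of immunoglobulin genes gave -0.11 and -0.099 for Rpl13a, -0.11 and -0.092 for Rpl27a, -0.19 and -0.18 for Rpl36, -0.068 and -0.053 for Rpl36al and -0.082 and -0.067 for Rpl7l1, as well as -0.20 and -0.19 for Rplp2. Quantile normalization and equal sums gave 0.092 and 0.19 for Rplp1, 0.051 and 0.27 for Rps10, 0.078 and 0.22 for Rps27l, as well as 0.037 and 0.19 for Rpsa, and at equal sums Rpl29 was at 0.016. With library weights Rps10 was at 0.11 and Rpsa at 0.21. With WT replicate 1 and dnTCF4 replicate 3 both left out, Rpl27a was at -0.021, Rplp0 was at 0.0079, Rplp2 was at -0.021, Rps10 was at 0.056 and Rpsa was at 0.17. The combination of median ratio scaling with the omission of dnTCF4 replicate 3 gave 0.026 for Rpl18, -0.094 for Rpl24, -0.22 for Rpl36al, -0.028 for Rpl5, -0.0099 for Rpl6, -0.030 for Rpl7l1, 0.063 for Rplp1, 0.14 for Rps10 and 0.094 for Rpsa. Leaving out each library in turn gave -0.024 to 0.22 for Rpl13a, -0.79 to 0.20 for Rpl18, -0.16 to 0.27 for Rpl27a, -0.59 to 0.15 for Rpl29, -0.31 to 0.39 for Rpl36, -0.052 to 0.29 for Rpl36al, -0.66 to 0.097 for Rplp0, -0.48 to 0.25 for Rplp1, -0.19 to 0.19 for Rplp2, -0.29 to 0.31 for Rps10, -0.18 to 0.034 for Rps27l and -0.35 to 0.27 for Rpsa. It gave log2 ratios of -0.046 to 0.096 for Rpl22l1 to Rpl22 and -0.14 to 0.014 for Rpl6l to Rpl6, and Rpl6l to Rpl6 was at 0.087 with a pseudocount of 0.1 RPKM. The 2 settings that combine or pair omissions were chosen after seeing the data. The other 821 values kept their direction and their side of the threshold. Each core gene had at least 1793 reads in every library, and the part of depth in the calls was not tested.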
